A study of Mus musculus with 4 samples.

Results

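The regions described here are 8 windows of the mouse genome named for 10 imprinted genes, H19 and Igf2, Kcnq1ot1, Peg3, Gnas, Grb10, Meg3 and Dlk1, Mest, and Rasgrf1. Their members are the CTCF peaks that overlap a window by at least 1 base on build mm9, taken by position whatever their score. The loci themselves were chosen with earlier results of these data known. Gene positions on mm9 were not used here, so where each gene lies in its window was not checked, and every count or absence below is that of the window. Together the windows span 1.49 Mb and held 23 of the 15109 peaks in the list. Peaks were found in 5 windows, and 3 held none. CTCF occupancy was measured by chromatin immunoprecipitation and sequencing (ChIP-seq) of hippocampus from C57/Bl mice, with 2 CTCF libraries made with a Millipore antibody and 2 input libraries of chromatin without immunoprecipitation. All 4 libraries share strain and tissue, and age and sex were not among the labels used here. The 1 deposited list joins them, so replicate error cannot be given for any value and read depth is unknown. The list also does not separate the maternal from the paternal chromosome, nor fewer cells with a bound site from weaker binding in each cell.

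Imprinted genes are expressed mainly from the copy inherited from one parent. Their domains carry a control region whose DNA is methylated on one parental chromosome only, a mark set in the egg or the sperm. CTCF, a DNA-binding protein with zinc fingers, holds the bases of chromatin loops together with cohesin, and can block an enhancer from reaching a promoter. Methylation of CpG dinucleotides in its site can prevent binding. The textbook case is the control region between H19 and Igf2, where CTCF on the unmethylated maternal copy insulates Igf2 from enhancers beyond H19.

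No mm9 sequence was used, so the letters under the peaks are not shown. Promoters of members are given instead from RefSeq on build GRCm38.p6, whose coordinates differ from those of the peaks and cannot be set beside them. Of the 10 genes, 9 matched the promoter table with 19 entries, and H19 did not. The following 4 are the most upstream start of a gene from each of the 2 windows with the most peaks (Meg3 and Igf2) and of 2 genes whose windows held none (Kcnq1ot1 and Grb10). Each is the 250 bases before the start, 5′ to 3′ on the strand of the gene, and capitals mark CpG, the dinucleotide that is methylated. They lie at chr12:109540746-109540995 on the plus strand for Meg3, and on the minus strand at chr7:142666817-142667066 for Igf2, chr7:143296548-143296797 for Kcnq1ot1 and chr11:12037421-12037670 for Grb10.
Meg3: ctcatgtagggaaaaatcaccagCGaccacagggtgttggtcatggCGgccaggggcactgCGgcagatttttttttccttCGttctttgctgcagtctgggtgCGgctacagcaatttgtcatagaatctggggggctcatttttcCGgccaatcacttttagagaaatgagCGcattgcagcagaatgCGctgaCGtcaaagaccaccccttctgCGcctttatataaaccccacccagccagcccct
Igf2: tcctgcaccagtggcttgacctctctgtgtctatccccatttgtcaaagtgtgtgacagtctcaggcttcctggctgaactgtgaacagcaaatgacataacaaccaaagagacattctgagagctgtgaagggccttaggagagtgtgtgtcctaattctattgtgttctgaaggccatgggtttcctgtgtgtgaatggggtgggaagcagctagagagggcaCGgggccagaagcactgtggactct
Kcnq1ot1: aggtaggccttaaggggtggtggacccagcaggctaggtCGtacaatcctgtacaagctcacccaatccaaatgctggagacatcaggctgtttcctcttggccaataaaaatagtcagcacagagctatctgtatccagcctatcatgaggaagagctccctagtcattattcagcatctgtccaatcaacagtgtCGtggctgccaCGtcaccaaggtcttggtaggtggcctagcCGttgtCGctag
Grb10: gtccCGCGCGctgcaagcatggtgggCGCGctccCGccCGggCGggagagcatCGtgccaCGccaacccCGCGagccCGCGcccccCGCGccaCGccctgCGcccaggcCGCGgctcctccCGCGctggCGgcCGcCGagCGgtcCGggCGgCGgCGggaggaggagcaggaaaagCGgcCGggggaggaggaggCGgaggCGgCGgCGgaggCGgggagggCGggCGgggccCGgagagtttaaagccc

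The Grb10 promoter was the densest of the 4, with 40 CpG, a count reached by 1.31% of the 32851 promoters in the table. The Meg3 stretch held 10, the Kcnq1ot1 stretch 5 and the Igf2 stretch 1, against a median of 6 over all promoters. The count depended on the start taken: the other Igf2 starts held 6, 10 and 22 CpG, the other Grb10 start 8 and the other Meg3 start 0. No relation between CpG number and peaks was tested. CTCF motif words were searched on both strands in the 300 bases from 250 before to 50 after each start. The 7 letters AGGGGGC, the core of the CTCF consensus, an alternative chosen after the data had been seen, occurred in 10.6% of all promoters. They occurred in 6 of the 19 promoters of members, namely 3 of the 4 Gnas, 2 of the 4 Igf2 and the 1 Rasgrf1 promoter. Of the 3 Gnas promoters, 2 overlap and share the same match. The 19 entries are starts of only 9 genes, and their share was not tested against the 10.6%. The planned words were longer stretches of the CTCF consensus, 2 of 12 letters and 1 of 14, found in 0.198%, 1.28% and 0.0365% of all promoters and in none of the 19. A match is a description of the letters and not a bound site.

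The peaks were shared very unevenly among the loci. Meg3/Dlk1 held 10, H19/Igf2 held 7, Peg3 held 4, and Gnas and Mest held 1 each. Kcnq1ot1, Grb10 and Rasgrf1 held no peak of the list. The first 2 loci thus took 17 of the 23 peaks in 420 kb. Windows of matching length, laid end to end over the 19 autosomes from the first to the last peak of each, give the background. At least 10 peaks were found in 2.36% of the windows of 220 kb, the length of Meg3/Dlk1. At least 7 were found in 4.62% of those of 200 kb, the length of H19/Igf2. At least 4 were found in 7.67% of those of 140 kb, the length of Peg3. These 3 loci therefore lay in the full tail of the autosomes, as a description of this list without a test. The loci with few or no peaks were ordinary by the same measure. At least 1 peak occurred in 38.7% of windows of 180 kb (Gnas) and in 30.0% of windows of 110 kb (Mest). An empty window was the most frequent kind at every length, with 61.3% at 180 kb (Kcnq1ot1), 58.2% at 210 kb (Grb10) and 54.9% at 250 kb (Rasgrf1).

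**Figure D1:**
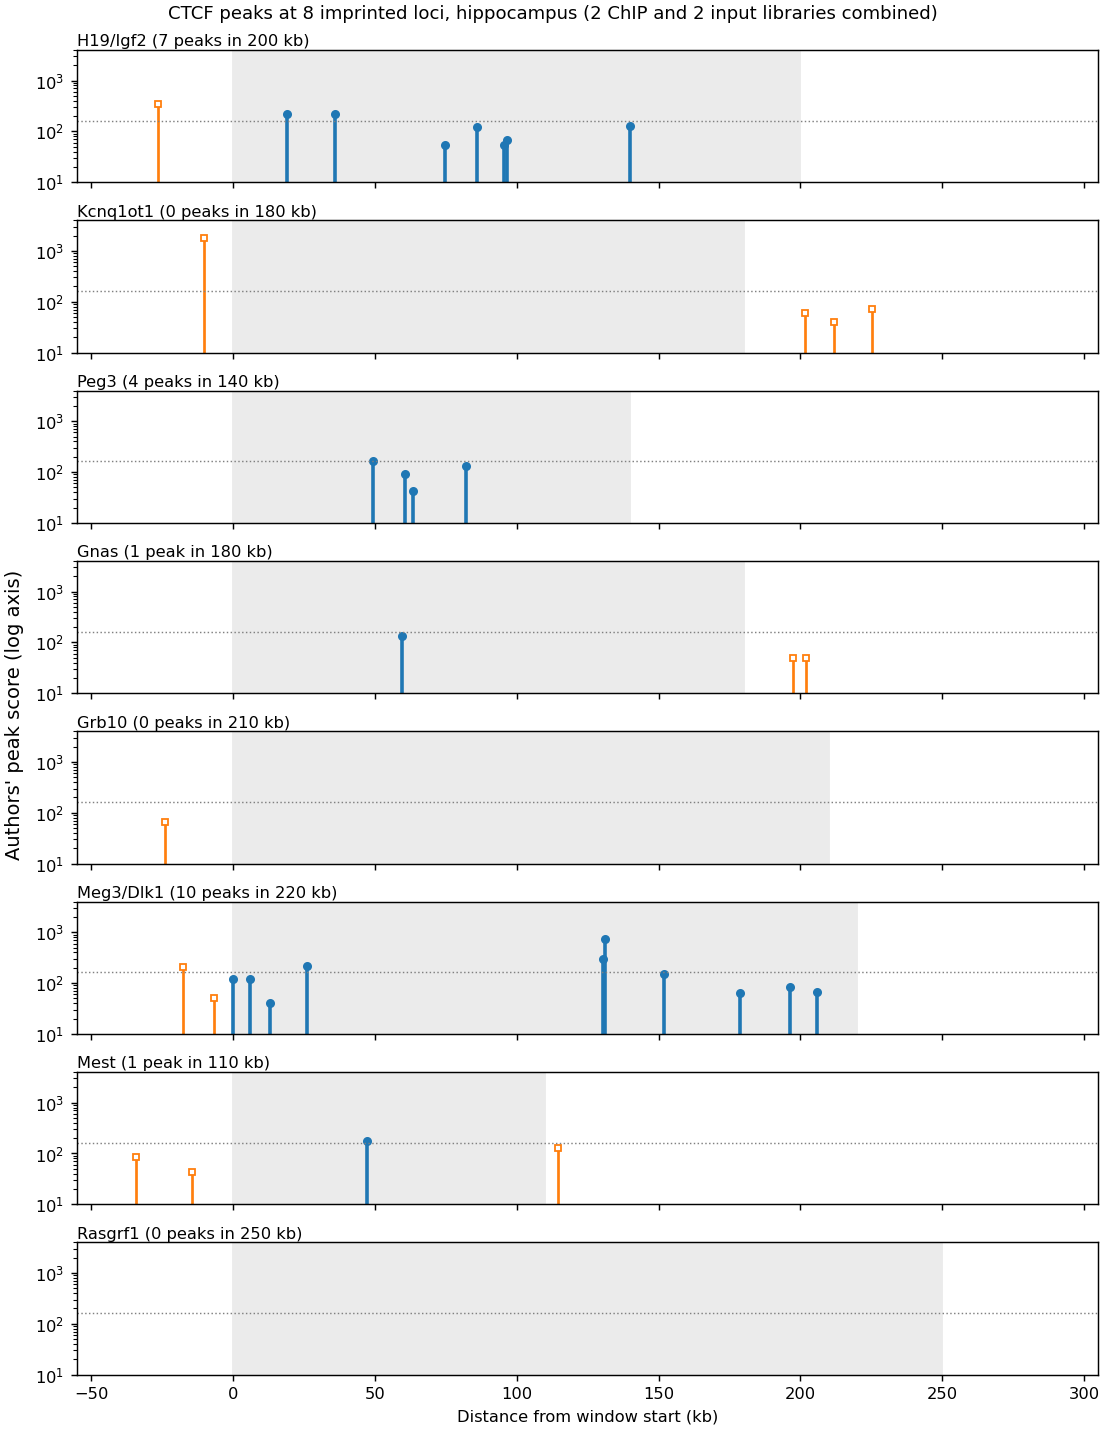
Peaks along each of the 8 windows, by distance of the peak's midpoint from the window's start (kb), with the authors' score as the height on a log axis. Grey marks the window, filled circles are peaks that overlap it, open squares are peaks within 50 kb outside it, and the dotted line is the upper quartile of the list's scores (163). The 10 Meg3/Dlk1 peaks fall into a group near the window's start and a group in its second part, and the square before the Kcnq1ot1 window stands at 1762.

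At Meg3/Dlk1 on chromosome 12, the window from 110650000 to 110870000 held the strongest peak of any of the loci. Dlk1, a paternally expressed membrane protein related to Notch ligands, and Meg3, a maternally expressed long noncoding RNA, share a control region that is methylated on the paternal copy. In the RefSeq order Dlk1 is followed by Meg3, Rtl1, Rian and Mirg, the last 3 being other imprinted genes of the domain. The strongest peak, at 110780882 to 110781446, scored 721 over 565 bp. It ranked 483 in the list, and 3.21% of all peaks scored as high or higher. Only 306 bp separated it from the second peak, at 110780023 to 110780575, which scored 299 over 553 bp. These were the only members with under 1 kb between them, so the 10 peaks formed 9 separate regions.

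The other Meg3/Dlk1 peaks scored well below this pair. The peak at 110675965 to 110676412 scored 221, and that at 110801700 to 110802172 scored 152. The 2 peaks at the start of the window, at 110649614 to 110650161 and 110655417 to 110656376, scored 121 each. The first of them crosses the window's edge and has its midpoint outside. The second, with 960 bp, was the widest of all 23 members although its score was moderate. The last peak, at 110855525 to 110855888, scored 66, and the remaining 3 scored 41 to 83. A stretch of 104 kb without a peak divided the 4 peaks at the start of the window from the pair. The median gap between adjacent peaks over the whole list was 31.7 kb. Another 2 peaks lay shortly before the window, scoring 50 at a distance of 6.39 kb and 211 at 17.6 kb. After the window the next peak was 118 kb away and scored 611.

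At H19/Igf2 on chromosome 7, the window from 149700000 to 149900000 held 7 peaks of low to moderately high score. H19 is a maternally expressed noncoding RNA, and Igf2, insulin-like growth factor 2, is a growth factor expressed from the paternal copy in most tissues. The peaks with the highest scores inside the window were the 2 nearest its start. One lay at 149718780 to 149719365 over 586 bp with a score of 224, and the other at 149735786 to 149736294 over 509 bp with a score of 221. A gap of 38.1 kb followed them, and the next 4 peaks lay close together. The peak at 149774362 to 149774843 scored 54. The peak at 149785908 to 149786425 scored 121. The 2 narrow peaks, at 149795158 to 149795557 with a score of 55 and at 149796561 to 149796931 with a score of 67, were 1003 bp apart. Of these 4, 3 were therefore in the lower part of the list, where 15.4%, 15.8% and 28.4% of all peaks scored lower than they did. After the longest gap inside the window, 42.7 kb, a single peak at 149839590 to 149840184 scored 127. A peak 26.2 kb before the window, at 149673221 to 149673757, scored 340, above all 7 members, so the highest score at the locus was 224 in the window and 340 with the window widened by 50 kb on each side. After the window the next peak was 180.0 kb away and scored 40.

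Without mm9 gene positions, none of the 7 peaks can be assigned to the H19 and Igf2 control region, to enhancers or to a gene. The known maternal CTCF sites at this locus are background here, and the list does not show whether any of these peaks is one of them. By RefSeq order the window's genes are followed by Ins2, Th, Ascl2, Tspan32, Cd81 and Kcnq1 on the way to Kcnq1ot1. The 450 kb between the H19/Igf2 and the Kcnq1ot1 windows held another 7 peaks, a stretch chosen after its values had been seen. Their scores ran from 27 to 1762 with a median of 62. Of the 7, 3 reached 163 or more, against 25.4% of the list. The peak scoring 1762 is the one described next, just before the Kcnq1ot1 window. No background of windows of 450 kb was computed.

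The Kcnq1ot1 window, from 150350000 to 150530000 on chromosome 7, held no peak, yet the strongest peak near any of the loci lay just outside it. Kcnq1ot1 is a paternally expressed noncoding RNA transcribed antisense to Kcnq1, from a control region methylated on the maternal copy, and is known for silencing neighbouring genes such as Cdkn1c, an inhibitor of the cell cycle. The outside peak, at 150339498 to 150340293, scored 1762 over 796 bp, ended 9.71 kb before the window, and ranked 61 in the list. It scored higher than 99.6% of the list, and higher than each of the 23 members. On the other side the nearest peak was 21.2 kb away and weak, with a score of 59, and the next 2 scored 40 and 72. The stretch without a peak around the window was 211 kb, and 14.7% of the gaps in the list were at least that long.

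At Peg3, the window from 6600000 to 6740000 near the other end of chromosome 7 held 4 peaks within 33.3 kb. Peg3 is a zinc finger protein, paternally expressed and known in brain for effects on maternal care, and its control region is methylated on the maternal copy. RefSeq places it between Zim1 and Usp29, both imprinted in the same domain. The first peak, at 6649017 to 6649395, scored 163, exactly the upper quartile of the list, in a narrow 379 bp. The last, at 6681687 to 6682332, scored 133 over 646 bp. Between them lay a wide peak at 6660266 to 6660978, with a score of 90 over 713 bp, and 2.34 kb after it the weakest of the 4, at 6663319 to 6663739, with a score of 43. The 4 peaks stood apart from their surroundings. The nearest peak before the window was 284 kb away and scored 304, and the nearest after it was 79.6 kb away and scored 49.

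Gnas and Mest each had a single peak of moderate score. Gnas encodes the stimulatory G protein alpha subunit, within a complex of promoters imprinted in different directions, and its window on chromosome 2 runs from 174050000 to 174230000. The Gnas peak, at 174109469 to 174109851, scored 133 in 383 bp, and the nearest other midpoint was 138 kb away. Mest, a paternally expressed gene for a protein of the hydrolase fold family, lies next to Copg2 in RefSeq, and its window on chromosome 6 runs from 30640000 to 30750000. The Mest peak, at 30686920 to 30687339, scored 172 in 420 bp, above the upper quartile of the list. Both windows had weaker peaks close outside. After the Gnas window, 2 peaks scored 49 each, the nearer at 17.3 kb. The nearest peak before that window was farther, at 96.9 kb, and stronger than the member, with a score of 296. Mest was flanked by a peak scoring 129 only 4.24 kb after its window and by peaks scoring 43 and 86 before it.

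Grb10 and Rasgrf1 had no peak in their windows, and few around them. Grb10 is an adaptor protein that restrains growth signalling, expressed from the maternal copy in most tissues and from the paternal copy in neurons. Its window on chromosome 11 from 11780000 to 11990000 lay in a stretch of 1.15 Mb without a peak. Of all gaps between adjacent peaks in the list, 2.82% were at least that long, a description without a test. On chromosome 11, 39.4% of windows of the same length were empty, against 58.2% over all autosomes. The nearest peaks were weak, with scores of 66 at 23.8 kb before the window and 62 at 918 kb after it. Rasgrf1, an exchange factor that activates Ras in neurons, has a control region methylated on the paternal copy. CTCF is known as an insulator at that control region when it is not methylated. The Rasgrf1 window on chromosome 9 from 89720000 to 89970000 lay in a stretch of 487 kb without a peak. At least that long were 6.96% of the gaps in the list. The flanking peaks scored 123 at 86.5 kb before and 95 at 151 kb after the window. No peak in this list is not evidence that CTCF was absent, since the depth and the calling threshold are unknown.

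**Figure D2:**
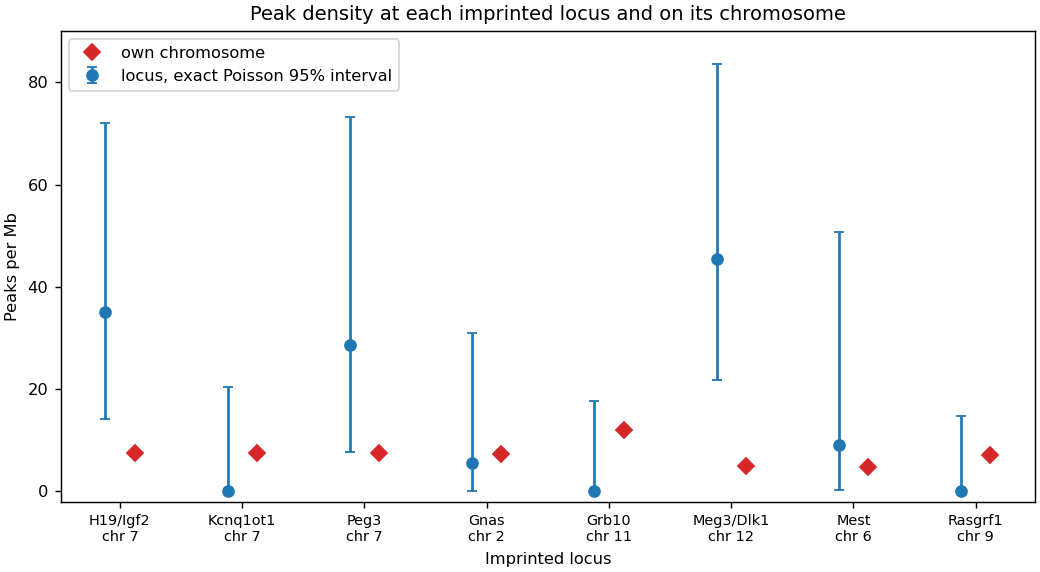
Peaks per Mb at each locus (circles, with exact Poisson 95% intervals for counting error) and on its whole chromosome (diamonds). The intervals of H19/Igf2, Peg3 and Meg3/Dlk1 lie above the chromosome's value, and those of the other 5 loci include it.

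Set against their own chromosomes, 3 loci were denser in peaks than the counting interval covers. Meg3/Dlk1 had 45.5 peaks per Mb (exact Poisson 95% interval 21.8 to 83.6) on chromosome 12 with 4.94. H19/Igf2 had 35.0 (14.1 to 72.1) and Peg3 had 28.6 (7.78 to 73.2) on chromosome 7 with 7.47. The interval of Peg3 only just cleared the chromosome's value. Windows of the same length on the same chromosome, which take the clustering of peaks into account, held at least as many peaks in 0.933% of cases for Meg3/Dlk1, 5.64% for H19/Igf2 and 10.4% for Peg3. By that measure Peg3 stood apart least of the 3. Mest had 9.09 (0.230 to 50.7) on chromosome 6 with 4.69, and Gnas 5.56 (0.141 to 31.0) on chromosome 2 with 7.30. With 0 peaks, the upper limits were 20.5 per Mb at Kcnq1ot1, 17.6 at Grb10 and 14.8 at Rasgrf1, all above the densities of their chromosomes, 7.47, 11.9 and 7.05. The empty windows were thus too short for a lower density to be detectable. Neighbouring peaks are not independent, so all these intervals are too narrow.

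Over the 8 loci together the density was 15.4 per Mb (9.79 to 23.2), against 6.28 on the autosomes, a ratio of 2.46. This rested on 2 loci: without Meg3/Dlk1 the ratio was 1.63, and without H19/Igf2 it was 1.98. Those 2 held 17 of the 23 peaks in 420 kb of the 1.49 Mb, and the other 6 loci together held 6. The ratio without both was not computed, so 2.46 does not describe the imprinted loci in general. The loci can also be ordered by the parental copy on which the control region is methylated, a grouping from general knowledge made after the counts had been seen. The 3 with paternal methylation, H19/Igf2, Meg3/Dlk1 and Rasgrf1, held 17 peaks in 670 kb, or 25.4 per Mb (14.8 to 40.6). The 5 with maternal methylation, Kcnq1ot1, Peg3, Gnas, Grb10 and Mest, held 6 peaks in 820 kb, or 7.32 per Mb (2.69 to 15.9). The order did not hold locus by locus, since Rasgrf1 held 0 and Peg3 held 4. The difference was not tested.

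**Figure D3:**
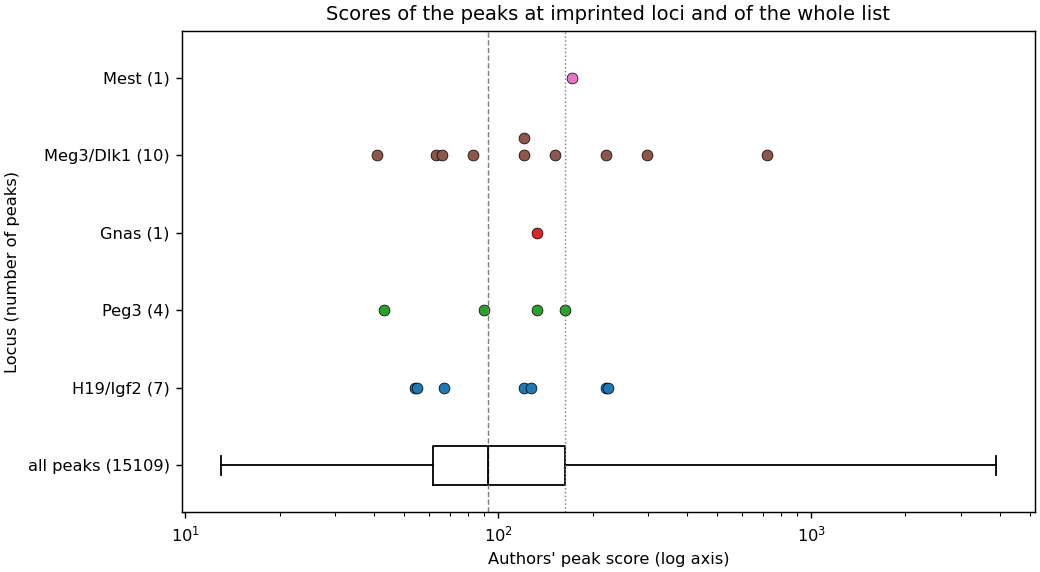
The authors' peak score (log axis) of each peak at the 5 loci that held any, with equal scores drawn one above the other. The box shows the quartiles and the whiskers the range over all 15109 peaks, and the dashed and dotted lines mark the list's median (93) and upper quartile (163). Members run from 41 to 721 and lie on both sides of the median at H19/Igf2, Peg3 and Meg3/Dlk1.

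The scores of the 23 members lay within the ordinary range of the list. They ran from 41 to 721 with a median of 121 (order-statistic 95% interval 67 to 163), against a median of 93 over all peaks. The interval treats the 23 peaks as independent, although 17 came from 2 loci, so it is too narrow and serves as no test. Scores of at least 93 were found in 14 members (60.9%), against 50.3% of the list. Scores of at least 163 were found in 7 members (30.4%), against 25.4% of the list, and these shares are near the background. The 7 were 3 peaks at Meg3/Dlk1, 2 at H19/Igf2 and 1 each at Peg3 and Mest. The median was 121 at both Meg3/Dlk1 and H19/Igf2 and 111.5 at Peg3. The single peaks at Gnas and Mest scored 133 and 172, and the 3 empty loci have no score. Typical scores of loci with many and with few peaks therefore cannot be compared.

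**Figure D4:**
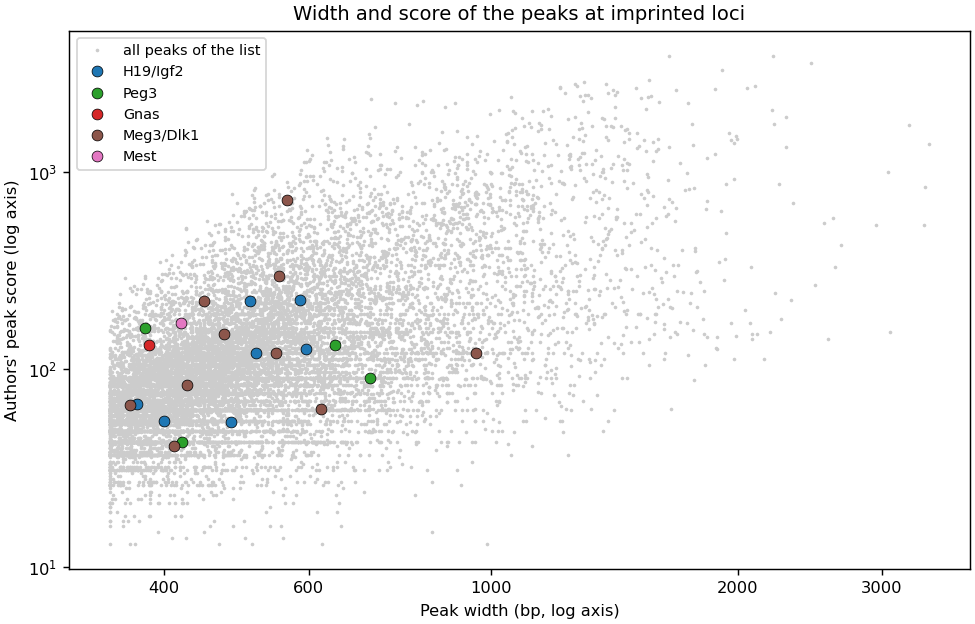
Width (bp) and authors' score of the 23 members (coloured by locus) and of all peaks of the list (grey), both on log axes. The members sit in the main cloud between 364 and 960 bp, and the Meg3/Dlk1 peak scoring 721 lies high in it for its width of 565 bp.

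Member peaks were of ordinary width. Widths ran from 364 to 960 bp with a median of 482 bp, against 473 bp over the list. None of the 23 exceeded 1 kb. Only 869 of the 15109 peaks of the list did, so their absence among 23 members is not a particular trait. How closely width followed score among the members was not measured. The strongest member was 565 bp wide, whereas the widest, at 960 bp, scored 121, and the Peg3 peak of 713 bp scored 90. The narrowest, at 364 bp, had a low score of 66. These single peaks do not settle the relation. Another peak's midpoint lay within 10 kb of 12 members (52.2%), against 42.9% of the list. Of these, 7 were at Meg3/Dlk1, 3 at H19/Igf2 and 2 at Peg3. The share is again near the background, although the arrangement differed by locus: a pair 306 bp apart at Meg3/Dlk1, a pair 1003 bp apart at H19/Igf2, and solitary peaks at Gnas and Mest.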

How the data were processed

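The measurement was CTCF ChIP-seq of mouse hippocampus, with 2 ChIP and 2 input libraries by their titles, whereas the series text counts 1 input. The only values used were 1 deposited list of peaks with a whole-number score per peak, whose scaling the authors do not state. Per the file headers, it is a narrowPeak track on mm9 that joins ChIP 1 and 2 and input 1 and 2. The submitters' processing notes name cutadapt and MACS2 2.0.10.20131216. For aligner, duplicates and threshold, nothing is stated in the labels or header. The score was used to describe and rank peaks within the list.

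Starts were converted to positions counted from 1. A peak belonged to a locus if it overlapped its window by at least 1 base. Background windows were consecutive, of each locus' length, over the span from first to last peak of the 19 autosomes. Exact Poisson 95% intervals cover counting error only, and no test over samples was possible. Promoters (RefSeq, GRCm38.p6) were searched for 3 motif words. The other imprinted genes came from a list of 21 symbols, 19 of which matched the gene table, used for order only. Named items were all 10 genes, every peak at loci with at most 8, and otherwise the 5 highest scores (ties included) with the first and last. Members and lists were chosen with earlier results of these data known. Window counting was tested on simulated data, with 160 of 160 windows correct. Alternatives were scores of at least 93 or 163, joining of peaks under 1 kb apart, midpoints, windows widened by 50 kb or narrowed by 25 kb, and each locus left out. Python 3.11.15, pandas 2.3.3, scipy 1.17.1 and matplotlib 3.10.9 were used.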

Additional observations from a re-analysis of the deposited data

How the results depend on the processing

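The number of peaks at the 8 loci, 23, was 22 after joining peaks under 1 kb apart or by midpoint, and 17 with windows narrowed by 25 kb. It fell to 14 with scores of at least 93 and 7 with scores of at least 163, by the filters' own construction, and rose to 36 with windows widened by 50 kb. Widening brought a peak into 7 of the 8 windows, with Rasgrf1 still at 0. It gave Kcnq1ot1 4 peaks, and raised the highest score at any locus from 721 to 1762, and at H19/Igf2 from 224 to 340. Narrowing took Meg3/Dlk1 from 10 to 5 peaks. The median score was 106 with widened windows, 121 after joining, and 121 to 127 with each locus left out. The density ratio to the autosomes ranged from 1.63 without Meg3/Dlk1 to 2.99 with scores of at least 93. It was above 1 under all 12 alternatives, but none of them left out both Meg3/Dlk1 and H19/Igf2. Those 2 held 17 of the 23 peaks in 420 kb of the 1.49 Mb, and the other 6 loci together held 6. The 12 ratios therefore do not show an excess at the other 6 loci. The count of member promoters with a CTCF word was 0 with the planned words and 6 with the 7-letter core, added after seeing the data, since a shorter word matches more often. No paired analysis was possible because deposited values pool all libraries, and leaving out a replicate was not run for the same reason. Read depth is unknown, so an empty window does not show absence of binding.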
